A study of Arabidopsis thaliana with 18 samples.

Results

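The genes described here are 10 genes of the phloem sieve elements, chosen by name: APL, SEOR1, SEOR2, NAC045, NAC086, NEN4, CALS7, BRX, OPS and CVP2. All 10 were found among the 25537 genes of the deposited table, and all 10 passed the filter on low counts. The material was roots of 4-day-old Arabidopsis thaliana seedlings grown on sucrose-containing plates in a cycle of 16 h light and 8 h dark, with no treatment. Poly(A) RNA was sequenced from 18 libraries, 3 per genotype, which the labels call biological replicates. The 6 genotypes were 4 double mutants, the single mutant rab8d-2 and wild type (WT, Columbia). The double mutants carried rab8d-2 together with a mutation in ATM (atm-2), SOG1 (sog1-1), NAC044 (nac044-1) or NAC085 (nac085-1). RAB8D encodes the plastid translation elongation factor EF-Tu, ATM a kinase that responds to DNA breaks, SOG1 the NAC transcription factor at the head of the plant DNA damage response, and NAC044 and NAC085 related NAC factors. Every mutant group carried rab8d-2, and atm-2, sog1-1, nac044-1 and nac085-1 were not tested without it. Each mutant gene is represented by 1 allele.

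Levels are given in TPM, a transcript abundance scaled by transcript length and to the same sum in every library, so that genes can be compared with each other. Library totals lay between 20103634 and 20471203 estimated counts. In the libraries titled rab8d-2 another label gives the genotype as wild type. Groups follow the titles here, and RAB8D averaged 10.1 TPM in rab8d-2 roots and 77.02 TPM in WT roots. ATM RNA was 0.767 TPM in atm-2 rab8d-2 roots, against 7.56 TPM in rab8d-2 roots. NAC044 RNA was at 142.28 to 147.95 TPM in the libraries labelled nac044-1 rab8d-2, against 17.04 to 17.95 TPM in rab8d-2 roots, which goes against a loss of the transcript. SOG1 RNA was 20.93 TPM in sog1-1 rab8d-2 roots and 18.77 TPM in rab8d-2 roots, so its level does not check that label. NAC085 stood at 1.38, 1.87 and 0.68 TPM in nac085-1 rab8d-2 roots, against 2.3, 3.05 and 1.82 TPM in rab8d-2 roots, and these groups overlapped. It was called lower there (log2 fold change -0.92 ± 0.27, adjusted p = 0.00248, 56 against 108 estimated counts over 3 libraries each). It was also called lower in sog1-1 rab8d-2 roots than in rab8d-2 roots (log2 fold change -0.70 ± 0.26, adjusted p = 0.0198). The root tip genes PLT1 (5.11 to 8.46 TPM) and WOX5 (1.67 to 29.36 TPM) were detected in every library.

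Sieve elements are the conducting cells of the phloem. As they mature they lose their nucleus and most organelles, keep a thin cytoplasm with filaments of phloem protein, and join end to end through sieve plates whose pores are lined with callose. In the root tip the protophloem is laid down first, close to the meristem, under proteins that act at the plasma membrane and through transcription factors that carry out the final differentiation. Companion cells beside the sieve elements load them with sugar and amino acids.

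The sieve element genes did not move as a block in rab8d-2 roots. The genes of the phloem protein filaments, SEOR1 and SEOR2, fell furthest below WT, CVP2 and APL fell less, and OPS rose. Of the 10, 7 rose in nac085-1 rab8d-2 roots above rab8d-2 roots and none fell there, where 31.8% of all genes tested rose and 31.7% fell. In sog1-1 rab8d-2 roots, and in the libraries labelled nac044-1 rab8d-2, SEOR1, SEOR2 and APL were above rab8d-2 roots and OPS was below. Here and below a gene is said to have risen or fallen, or is counted as called, when its adjusted p in edgeR's quasi-likelihood test was under 0.05. Log2 fold changes are given with their standard error (±). RNA came from whole roots, so fewer sieve elements and less RNA per sieve element cannot be told apart.

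**Figure D1:**
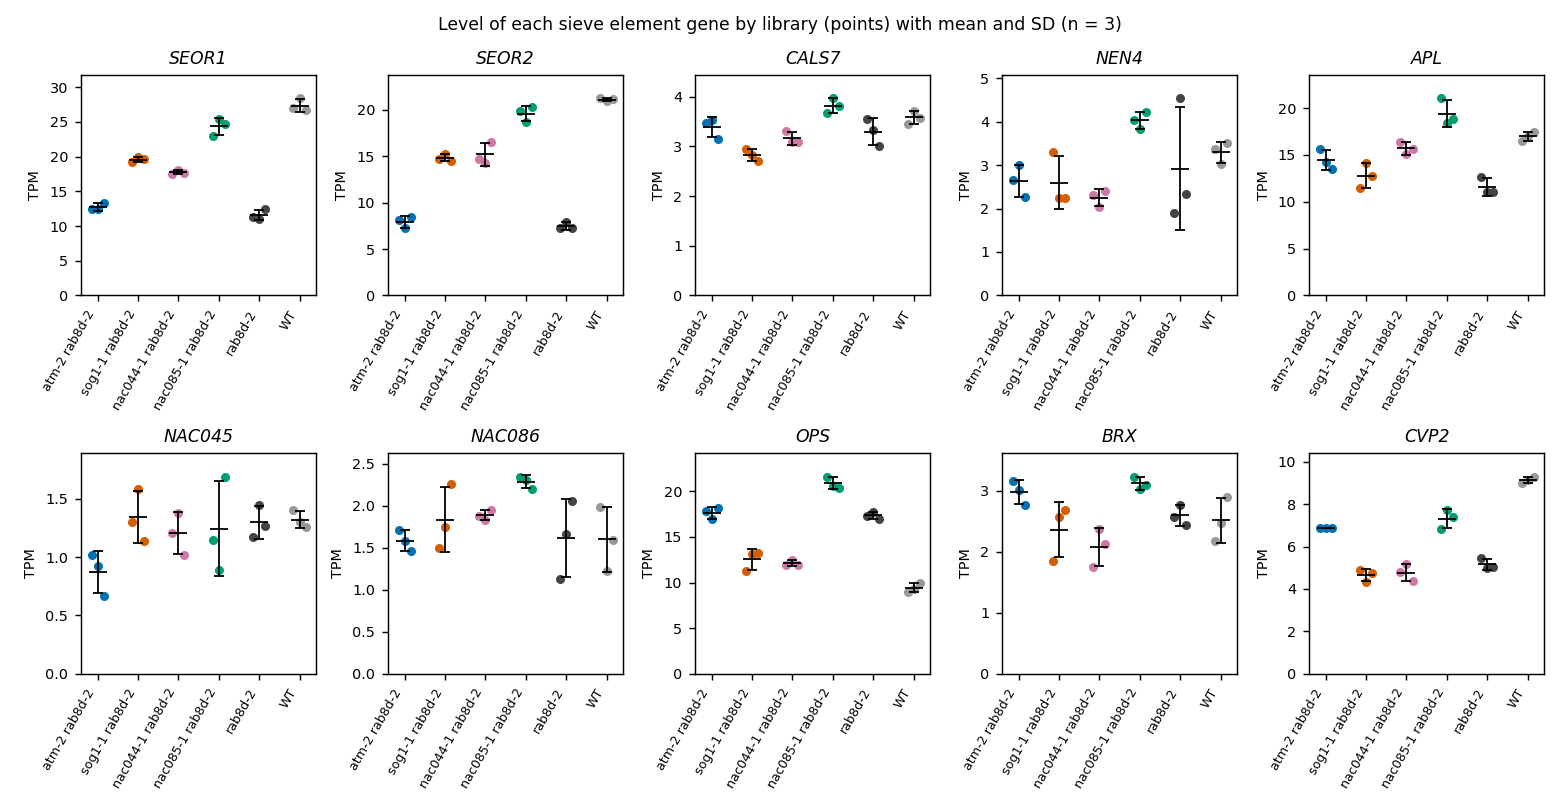
Level of each of the 10 sieve element genes in every library, in TPM on the vertical axis, by genotype on the horizontal axis, with 3 libraries per genotype (points) and the mean and SD (bars). SEOR1 and SEOR2 are lowest in rab8d-2 and atm-2 rab8d-2 roots and highest in WT roots, while OPS is lowest in WT roots, at 8.96 to 9.97 TPM.

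SEOR1 (AT3G01680) and SEOR2 (AT3G01670) encode the sieve element occlusion-related proteins that build the phloem protein filaments. They lie next to each other on chromosome 3, both on the plus strand, with 1395 bases between the end of SEOR2 and the start of SEOR1. In the RefSeq annotation of TAIR10.1, SEOR2 runs from 247192 to 250472 and SEOR1 from 251868 to 255513. The build behind the deposited table is not given in the sources used here, and the transcript listed for each of its 25462 nuclear genes is in that annotation. The 250 bases before each start are printed because these neighbours moved together across the genotypes, at chr3:251618-251867 for SEOR1 and chr3:246942-247191 for SEOR2, both on the plus strand, from the RefSeq genome of TAIR10.1. Capitals mark the motifs searched for.
SEOR1: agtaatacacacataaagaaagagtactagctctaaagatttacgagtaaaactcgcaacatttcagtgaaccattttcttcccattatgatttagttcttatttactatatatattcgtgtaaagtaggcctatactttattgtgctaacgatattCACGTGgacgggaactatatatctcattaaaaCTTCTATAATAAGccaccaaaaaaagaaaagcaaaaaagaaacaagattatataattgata
SEOR2: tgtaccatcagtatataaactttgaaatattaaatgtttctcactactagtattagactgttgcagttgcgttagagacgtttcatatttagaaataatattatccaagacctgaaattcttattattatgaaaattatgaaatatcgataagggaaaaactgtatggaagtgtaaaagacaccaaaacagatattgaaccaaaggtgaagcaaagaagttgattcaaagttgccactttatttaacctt
The motifs searched on both strands were CTT and AAG with 7 bases between them, which SOG1 is known to bind, CACGTG (the G-box), AAAATATCT (the evening element) and AACGG (the core bound by MYB3R factors). The SEOR1 window held CACGTG, starting 93 bases before the gene's start, and a CTT and AAG pair, starting 61 bases before it. The SEOR2 window held none of the 4. Of 25456 promoters of the same length, 9.55% held the CTT and AAG pair, 6.77% CACGTG, 2.40% AAAATATCT and 21.1% AACGG. None of these matches overlapped another in the windows of the 10 genes, and a match is only a run of letters.

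SEOR1 stood at 12.52, 12.4 and 13.37 TPM in atm-2 rab8d-2 roots, at 19.17, 19.89 and 19.67 TPM in sog1-1 rab8d-2 roots, at 17.56, 18.06 and 17.68 TPM in the libraries labelled nac044-1 rab8d-2 and at 22.99, 25.37 and 24.72 TPM in nac085-1 rab8d-2 roots. It stood at 11.32, 11.07 and 12.39 TPM in rab8d-2 roots, against 26.94, 28.42 and 26.66 TPM in WT roots. Every mutant library was below every WT library, and the atm-2 rab8d-2 libraries were only just above the rab8d-2 libraries. SEOR1 fell by 1.29 ± 0.05 on the log2 scale in rab8d-2 roots relative to WT roots (adjusted p = 8.34e-27). Relative to rab8d-2 roots it was higher by 0.83 ± 0.05 in sog1-1 rab8d-2 roots, by 0.62 ± 0.05 in the libraries labelled nac044-1 rab8d-2 and by 1.08 ± 0.05 in nac085-1 rab8d-2 roots (log2, adjusted p of 2.06e-13 or less). The difference in atm-2 rab8d-2 roots was small, 0.15 ± 0.06 (adjusted p = 0.0204), and was no longer called without rab8d-2 replicate 1 (0.138, adjusted p = 0.0655), rab8d-2 replicate 2 (0.118, adjusted p = 0.111) or atm-2 rab8d-2 replicate 3 (0.108, adjusted p = 0.152), nor with DESeq2 (adjusted p = 0.0777). From low to high the order was rab8d-2, atm-2 rab8d-2, the libraries labelled nac044-1 rab8d-2, sog1-1 rab8d-2, nac085-1 rab8d-2 and WT, and each neighbour differed from the next at an adjusted p under 0.05.

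SEOR2 followed similar steps at a lower level. It stood at 8.12, 7.25 and 8.48 TPM in atm-2 rab8d-2 roots, at 14.75, 15.29 and 14.5 TPM in sog1-1 rab8d-2 roots, at 14.76, 14.29 and 16.59 TPM in the libraries labelled nac044-1 rab8d-2 and at 19.87, 18.68 and 20.27 TPM in nac085-1 rab8d-2 roots. It stood at 7.32, 7.94 and 7.22 TPM in rab8d-2 roots, against 21.27, 20.97 and 21.13 TPM in WT roots. The atm-2 rab8d-2 and rab8d-2 libraries overlapped, and no mutant library reached the lowest WT library. SEOR2 fell by 1.55 ± 0.06 on the log2 scale in rab8d-2 roots relative to WT roots (adjusted p = 6.01e-27). Over rab8d-2 roots it was higher by 1.06 ± 0.06 in sog1-1 rab8d-2 roots, by 1.03 ± 0.06 in the libraries labelled nac044-1 rab8d-2 and by 1.39 ± 0.06 in nac085-1 rab8d-2 roots (log2, adjusted p of 2.21e-18 or less). In atm-2 rab8d-2 roots it was 0.10 ± 0.07 above rab8d-2 roots and was not called (adjusted p = 0.233). In nac085-1 rab8d-2 roots it was still below WT roots, at a log2 fold change of -0.15 ± 0.05 (adjusted p = 0.00655), a difference no longer called without nac085-1 rab8d-2 replicate 2 (-0.121, adjusted p = 0.0536) or with limma on log2(TPM + 1) (adjusted p = 0.151). The level in the libraries labelled nac044-1 rab8d-2 and that in sog1-1 rab8d-2 roots did not differ beyond their spread (adjusted p = 0.618).

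Over the 18 libraries, SEOR1 and SEOR2 had a Pearson correlation of 0.971 on log2 CPM (counts scaled to the library total), as a description of libraries that share genotypes. Their TPM ratio, SEOR1 over SEOR2, was 1.54 to 1.71 in atm-2 rab8d-2 roots and 1.39 to 1.72 in rab8d-2 roots. It was 1.3 to 1.36 in sog1-1 rab8d-2 roots, 1.07 to 1.26 in the libraries labelled nac044-1 rab8d-2, 1.16 to 1.36 in nac085-1 rab8d-2 roots and 1.26 to 1.36 in WT roots. The ratio was above that of WT roots in the genotypes where the pair was lowest. The pair also lies near NAC044, whose end is 15.7 kb from the start of SEOR2 with 7 genes between. Of those 7, 3 passed the filter on low counts, and in the libraries labelled nac044-1 rab8d-2 CDC48C was 0.55 and RGLG1 0.18 above rab8d-2 roots on the log2 scale, while GLCAK was at 0.03 and not called. SEOR2 averaged 7.95 TPM in atm-2 rab8d-2 roots, with NAC044 at 12.83 to 13.03 TPM. It averaged 14.85 TPM in sog1-1 rab8d-2 roots, with NAC044 at 13.95 to 14.8 TPM. In the libraries labelled nac044-1 rab8d-2 SEOR2 averaged 15.21 TPM, with NAC044 at 142.28 to 147.95 TPM. In nac085-1 rab8d-2 roots it averaged 19.61 TPM, with NAC044 at 11.09 to 12.43 TPM. In rab8d-2 roots it averaged 7.49 TPM, with NAC044 at 17.04 to 17.95 TPM. In WT roots it averaged 21.12 TPM, with NAC044 at 3.91 to 5.13 TPM. What the nearness to NAC044 contributes to the SEOR1 and SEOR2 values in the libraries labelled nac044-1 rab8d-2 was not tested.

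CALS7 (AT1G06490, chromosome 1, 1978378 to 1989409, plus strand) encodes the callose synthase of the sieve plate pores. Its level spanned a narrow range, 2.71 to 3.97 TPM over all 18 libraries. It averaged 3.39 ± 0.21 TPM in atm-2 rab8d-2 roots, 2.83 ± 0.12 TPM in sog1-1 rab8d-2 roots, 3.16 ± 0.13 TPM in the libraries labelled nac044-1 rab8d-2 and 3.82 ± 0.15 TPM in nac085-1 rab8d-2 roots, against 3.30 ± 0.27 TPM in rab8d-2 roots and 3.58 ± 0.14 TPM in WT roots (SD, n = 3 each). CALS7 was 0.22 ± 0.07 above rab8d-2 roots in nac085-1 rab8d-2 roots (log2, adjusted p = 0.00286). Relative to WT roots it fell by 0.31 ± 0.07 in sog1-1 rab8d-2 roots (adjusted p = 0.000135) and by 0.215 ± 0.067 in the libraries labelled nac044-1 rab8d-2 (adjusted p = 0.00543), a call lost with limma on log2(TPM + 1) (adjusted p = 0.0898). It fell by 0.17 ± 0.07 on the log2 scale in rab8d-2 roots relative to WT roots (adjusted p = 0.0256). No neighbours in the order of CALS7 levels differed at an adjusted p under 0.05. The libraries labelled nac044-1 rab8d-2 all lay above those of sog1-1 rab8d-2 roots, without a call (adjusted p = 0.275). The call in rab8d-2 roots was lost without WT replicate 2 (-0.139, adjusted p = 0.103), WT replicate 3 (-0.166, adjusted p = 0.0511) or rab8d-2 replicate 3 (-0.104, adjusted p = 0.208), with upper quartile scaling (adjusted p = 0.114), with DESeq2 (adjusted p = 0.0866) and with limma on log2(TPM + 1) (adjusted p = 0.233).

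NEN4 (AT4G39810, chromosome 4, 18474481 to 18475804, minus strand) encodes an exonuclease-domain protein that acts in the breakdown of the nucleus, downstream of NAC045 and NAC086. It rested on 20 to 48 estimated counts per library. NEN4 stood at 4.04, 3.82 and 4.22 TPM in nac085-1 rab8d-2 roots and at 1.89, 4.54 and 2.33 TPM in rab8d-2 roots, so that rab8d-2 replicate 2 lay above the nac085-1 rab8d-2 libraries and the other rab8d-2 libraries below them. The difference of 0.48 ± 0.22 was not called (adjusted p = 0.0511), and without rab8d-2 replicate 2 it was 0.938 (adjusted p = 0.000501). NEN4 stood at 3.36, 3.03 and 3.5 TPM in WT roots, and rab8d-2 roots were not called against them (adjusted p = 0.37), while without rab8d-2 replicate 2 the log2 fold change was -0.694 (adjusted p = 0.0112). Relative to WT roots NEN4 fell by 0.60 ± 0.24 on the log2 scale in the libraries labelled nac044-1 rab8d-2 (adjusted p = 0.0306), where it stood at 2.03 to 2.41 TPM. Without WT replicate 1, WT replicate 3, or replicate 1 or 2 of the libraries labelled nac044-1 rab8d-2, that log2 fold change was -0.578, -0.554, -0.617 and -0.525 and was no longer called (adjusted p = 0.0541 to 0.0978). DESeq2 (adjusted p = 0.0867) and limma on log2(TPM + 1) (adjusted p = 0.0503) did not call it either. It ranged from 2.27 to 3.01 TPM in atm-2 rab8d-2 roots and from 2.24 to 3.3 TPM in sog1-1 rab8d-2 roots. None of the neighbours in the order of NEN4 levels differed at an adjusted p under 0.05. The nac085-1 rab8d-2 libraries all lay above the WT libraries, without a call (adjusted p = 0.317).

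APL (AT1G79430, chromosome 1, 29877228 to 29879279, minus strand) encodes the MYB coiled-coil transcription factor needed for phloem identity, and it acts upstream of NAC045 and NAC086. APL stood at 15.67, 14.19 and 13.54 TPM in atm-2 rab8d-2 roots, at 11.49, 14.14 and 12.71 TPM in sog1-1 rab8d-2 roots, at 16.39, 15.07 and 15.6 TPM in the libraries labelled nac044-1 rab8d-2 and at 21.05, 18.35 and 18.79 TPM in nac085-1 rab8d-2 roots. It stood at 12.69, 11.08 and 10.99 TPM in rab8d-2 roots, against 16.47, 17 and 17.44 TPM in WT roots. The rab8d-2 libraries were all below the WT libraries and overlapped those of sog1-1 rab8d-2 roots alone among the double mutants. APL fell by 0.60 ± 0.08 on the log2 scale in rab8d-2 roots relative to WT roots (adjusted p = 4.88e-09). Over rab8d-2 roots it was higher by 0.33 ± 0.08 in atm-2 rab8d-2 roots, by 0.44 ± 0.08 in the libraries labelled nac044-1 rab8d-2 and by 0.75 ± 0.08 in nac085-1 rab8d-2 roots (log2, adjusted p of 0.000452 or less).

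The gain of APL in sog1-1 rab8d-2 roots, 0.22 ± 0.08 over rab8d-2 roots (log2, adjusted p = 0.0245), was no longer called without rab8d-2 replicate 2 (0.186, adjusted p = 0.0934), rab8d-2 replicate 3 (0.183, adjusted p = 0.0997) or sog1-1 rab8d-2 replicate 2 (0.138, adjusted p = 0.215), nor with DESeq2 (adjusted p = 0.0668) or limma on log2(TPM + 1) (adjusted p = 0.147). Relative to WT roots, APL fell by 0.272 ± 0.075 in atm-2 rab8d-2 roots (log2, adjusted p = 0.00143) and by 0.385 ± 0.077 in sog1-1 rab8d-2 roots (log2, adjusted p = 3.08e-05). The libraries labelled nac044-1 rab8d-2 were at -0.16 ± 0.07 (adjusted p = 0.058) and nac085-1 rab8d-2 roots at 0.15 ± 0.07 (adjusted p = 0.0654) relative to WT roots, and neither was called. The first was called in a fit of only those 6 libraries (adjusted p = 0.0342). The second was called without nac085-1 rab8d-2 replicate 2 (0.185, adjusted p = 0.0381), with upper quartile scaling (adjusted p = 0.0193) and with limma on log2(TPM + 1) (adjusted p = 0.0412). Of the 5 neighbour pairs in the order of APL levels, only sog1-1 rab8d-2 and rab8d-2 roots differed at an adjusted p under 0.05.

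NAC045 (AT3G03200, chromosome 3, 734892 to 738629, minus strand) and NAC086 (AT5G17260, chromosome 5, 5675184 to 5678175, minus strand) encode the paired NAC factors that drive the removal of the nucleus. Both were scarce, NAC045 at 0.67 to 1.69 TPM and NAC086 at 1.13 to 2.35 TPM over the 18 libraries. NAC045 stood at 1.02, 0.92 and 0.67 TPM in atm-2 rab8d-2 roots, against 1.17, 1.45 and 1.27 TPM in rab8d-2 roots and 1.4, 1.3 and 1.26 TPM in WT roots. It fell by 0.555 ± 0.200 on the log2 scale relative to rab8d-2 roots (adjusted p = 0.0146) and by 0.63 ± 0.20 relative to WT roots (adjusted p = 0.00465). The first of these was no longer called without rab8d-2 replicate 2 (-0.466, adjusted p = 0.0727) or atm-2 rab8d-2 replicate 3 (-0.407, adjusted p = 0.102). In sog1-1 rab8d-2 roots, in nac085-1 rab8d-2 roots and in the libraries labelled nac044-1 rab8d-2, NAC045 averaged 1.34, 1.24 and 1.20 TPM and was called against neither rab8d-2 nor WT roots. In its order of levels, only the lowest pair, the libraries labelled nac044-1 rab8d-2 and atm-2 rab8d-2 roots, differed (adjusted p = 0.0477). Its locus overlaps AT3G03190 on the opposite strand, and whether reads were counted by strand is not given in the sources used here. AT3G03190 averaged 10.68 TPM in atm-2 rab8d-2 roots, 5.62 TPM in rab8d-2 roots and 2.01 TPM in WT roots. It averaged 13.89 TPM in sog1-1 rab8d-2 roots, 2.87 TPM in the libraries labelled nac044-1 rab8d-2 and 5.78 TPM in nac085-1 rab8d-2 roots, and what its reads contribute to the NAC045 values was not tested.

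NAC086 stood at 2.35, 2.31 and 2.2 TPM in nac085-1 rab8d-2 roots, against 1.13, 1.67 and 2.06 TPM in rab8d-2 roots and 1.99, 1.22 and 1.59 TPM in WT roots. The nac085-1 rab8d-2 libraries were above all libraries of rab8d-2 and WT roots. It was higher by 0.50 ± 0.18 than in rab8d-2 roots (log2, adjusted p = 0.016) and by 0.47 ± 0.19 than in WT roots (log2, adjusted p = 0.0249). The gain over rab8d-2 roots was not called without rab8d-2 replicate 1 (0.301, adjusted p = 0.174) or with DESeq2 (adjusted p = 0.0627). The gain over WT roots was not called without WT replicate 2 (0.311, adjusted p = 0.175), WT replicate 3 (0.464, adjusted p = 0.0537), nac085-1 rab8d-2 replicate 1 (0.446, adjusted p = 0.0589) or nac085-1 rab8d-2 replicate 2 (0.460, adjusted p = 0.0525), nor with DESeq2 (adjusted p = 0.0862). NAC086 averaged 1.58 TPM in atm-2 rab8d-2 roots, 1.84 TPM in sog1-1 rab8d-2 roots and 1.89 TPM in the libraries labelled nac044-1 rab8d-2, none called against rab8d-2 or WT roots. No neighbours in its order of levels differed at an adjusted p under 0.05. The nac085-1 rab8d-2 libraries all lay above those labelled nac044-1 rab8d-2, without a call (adjusted p = 0.182).

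OPS, BRX and CVP2 act earlier, in the specification and continuity of the protophloem. OPS (AT3G09070, chromosome 3, 2768641 to 2771375, minus strand) encodes a protein placed at the shootward side of protophloem cells that promotes their differentiation. Its promoter window is shown because OPS was above WT roots in every mutant genotype, while SEOR1 and SEOR2 were below. In nac085-1 rab8d-2 roots, however, OPS and the SEOR pair were all above rab8d-2 roots. The window lies at chr3:2771376-2771625 on the minus strand of TAIR10.1 (RefSeq), with the searched motif in capitals.
OPS: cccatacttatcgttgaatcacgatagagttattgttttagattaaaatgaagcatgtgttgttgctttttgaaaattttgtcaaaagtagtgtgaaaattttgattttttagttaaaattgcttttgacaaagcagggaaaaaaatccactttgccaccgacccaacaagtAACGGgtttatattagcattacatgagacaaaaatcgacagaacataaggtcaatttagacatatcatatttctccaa
The window held AACGG, starting 78 bases before the gene's start, and none of the other motifs. Among the 10 genes, 4 windows held the CTT and AAG pair (SEOR1, NAC045, NEN4 and CALS7), 3 held AACGG (CALS7, BRX and OPS), 1 held CACGTG (SEOR1) and 0 held AAAATATCT. The shares over all promoters searched were 9.55%, 21.1%, 6.77% and 2.40%, in that order, and these counts were not tested. The NEN4 window overlaps the neighbouring locus AT4G39820, and the CALS7 window overlaps AT1G06480.

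OPS stood at 17.85, 16.91 and 18.12 TPM in atm-2 rab8d-2 roots, at 11.22, 13.13 and 13.26 TPM in sog1-1 rab8d-2 roots, at 11.9, 12.48 and 11.9 TPM in the libraries labelled nac044-1 rab8d-2 and at 21.62, 20.59 and 20.38 TPM in nac085-1 rab8d-2 roots. It stood at 17.32, 17.76 and 16.96 TPM in rab8d-2 roots, against 8.96, 9.33 and 9.97 TPM in WT roots. Every mutant library was above every WT library. OPS was higher by 0.83 ± 0.06 on the log2 scale in rab8d-2 roots than in WT roots (adjusted p = 4.06e-17). Relative to rab8d-2 roots it fell by 0.39 ± 0.06 on the log2 scale in sog1-1 rab8d-2 roots (adjusted p = 4.68e-08) and by 0.51 ± 0.06 in the libraries labelled nac044-1 rab8d-2 (adjusted p = 1.1e-10). It rose by 0.27 ± 0.05 in nac085-1 rab8d-2 roots (log2, adjusted p = 6.82e-06) and was at 0.04 ± 0.05 in atm-2 rab8d-2 roots, which was not called (adjusted p = 0.552). Over WT roots, OPS was still higher by 0.87 ± 0.06 in atm-2 rab8d-2 roots, by 0.44 ± 0.06 in sog1-1 rab8d-2 roots, by 0.31 ± 0.06 in the libraries labelled nac044-1 rab8d-2 and by 1.10 ± 0.06 in nac085-1 rab8d-2 roots (log2, adjusted p of 3.2e-05 or less). In the order of levels, atm-2 rab8d-2 and rab8d-2 roots did not differ beyond their spread, nor did the libraries labelled nac044-1 rab8d-2 and sog1-1 rab8d-2 roots (adjusted p = 0.0787), while the other 3 neighbour pairs differed.

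CVP2 (AT1G05470, chromosome 1, 1607202 to 1611840, minus strand) encodes a phosphoinositide phosphatase needed for unbroken phloem strands. CVP2 stood at 6.86, 6.89 and 6.89 TPM in atm-2 rab8d-2 roots, at 4.9, 4.32 and 4.77 TPM in sog1-1 rab8d-2 roots, at 4.79, 5.17 and 4.36 TPM in the libraries labelled nac044-1 rab8d-2 and at 6.84, 7.71 and 7.39 TPM in nac085-1 rab8d-2 roots. It stood at 5.47, 5 and 5.05 TPM in rab8d-2 roots, against 9.01, 9.16 and 9.31 TPM in WT roots. All mutant libraries were below all WT libraries, and those of atm-2 rab8d-2 and nac085-1 rab8d-2 roots were above the other mutants. CVP2 fell by 0.88 ± 0.07 on the log2 scale in rab8d-2 roots relative to WT roots (adjusted p = 1.73e-15). Over rab8d-2 roots it was higher by 0.42 ± 0.07 in atm-2 rab8d-2 roots (adjusted p = 2.09e-06) and by 0.52 ± 0.07 in nac085-1 rab8d-2 roots (adjusted p = 2.06e-08). The log2 fold change was -0.07 ± 0.08 in sog1-1 rab8d-2 roots and -0.105 ± 0.079 in the libraries labelled nac044-1 rab8d-2, neither called (adjusted p = 0.452 and 0.3). Relative to WT roots CVP2 fell by 0.95 ± 0.07 in sog1-1 rab8d-2 roots and by 0.98 ± 0.07 in the libraries labelled nac044-1 rab8d-2, and by 0.45 ± 0.07 in atm-2 rab8d-2 roots and by 0.36 ± 0.06 in nac085-1 rab8d-2 roots (adjusted p of 4.55e-06 or less). In the order of its levels, nac085-1 rab8d-2 and atm-2 rab8d-2 roots did not differ beyond their spread (adjusted p = 0.244). Nor did rab8d-2 roots and the libraries labelled nac044-1 rab8d-2, or those libraries and sog1-1 rab8d-2 roots (adjusted p = 0.765).

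BRX (AT1G31880, chromosome 1, 11445490 to 11450232, plus strand) encodes a membrane-associated regulator of protophloem differentiation that works in the auxin response. Its 18 libraries ranged from 1.75 to 3.23 TPM, and it was called in no double mutant against rab8d-2 roots and in no mutant against WT roots. BRX averaged 2.98 ± 0.20 TPM in atm-2 rab8d-2 roots, 2.36 ± 0.45 TPM in sog1-1 rab8d-2 roots, 2.08 ± 0.31 TPM in the libraries labelled nac044-1 rab8d-2 and 3.12 ± 0.10 TPM in nac085-1 rab8d-2 roots, against 2.59 ± 0.17 TPM in rab8d-2 roots and 2.51 ± 0.37 TPM in WT roots (SD, n = 3 each). No neighbours in the order of its levels differed beyond their spread, and between double mutants it differed in 3 of 6 comparisons. BRX was higher in nac085-1 rab8d-2 roots by 0.58 ± 0.16 than in the libraries labelled nac044-1 rab8d-2 (adjusted p = 0.0014) and by 0.42 ± 0.15 than in sog1-1 rab8d-2 roots (log2, adjusted p = 0.0191). It was lower in the libraries labelled nac044-1 rab8d-2 than in atm-2 rab8d-2 roots, at a log2 fold change of -0.51 ± 0.16 (adjusted p = 0.00481).

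**Figure D2:**
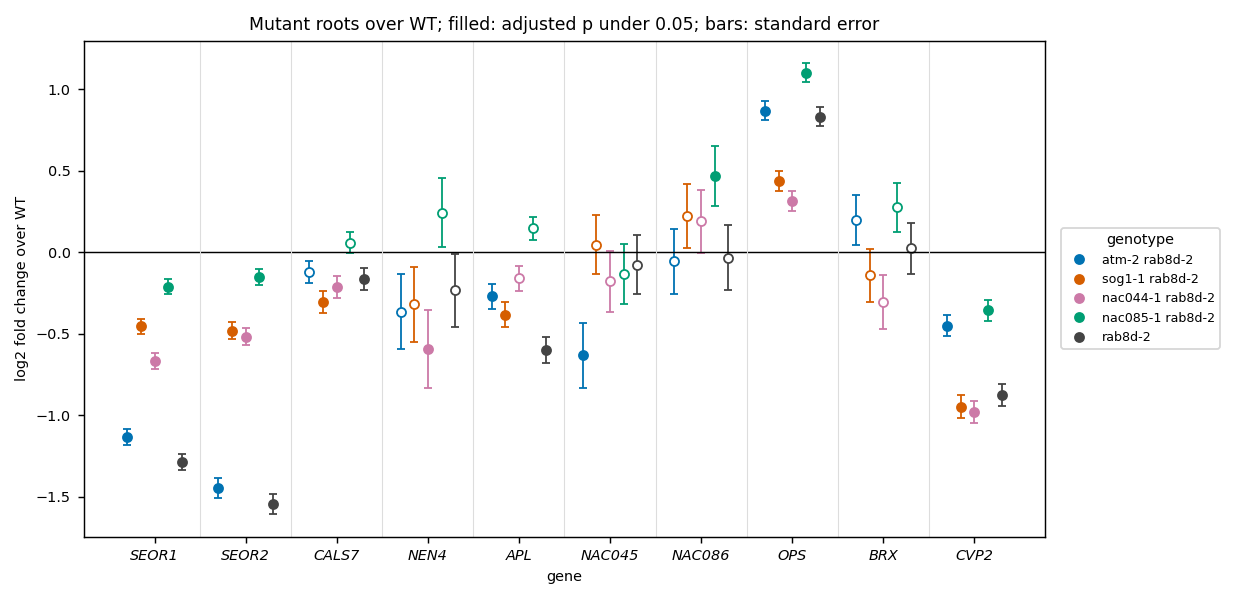
Log2 fold change of the 10 genes (horizontal axis) in each mutant genotype over WT roots (vertical axis), with the standard error (bars), filled where the adjusted p was under 0.05. SEOR1 and SEOR2 are below 0 and OPS above 0 in all 5 mutant genotypes, with SEOR2 at -1.55 and OPS at 0.83 in rab8d-2 roots.

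Counted over the 10 genes, 1 was higher and 5 were lower in rab8d-2 roots than in WT roots, where 31.7% of all 19981 genes tested were higher and 32.9% lower. The median log2 fold change of the 10 was -0.20, against 0.004 over all genes tested. A change of at least 2-fold was called for SEOR1 and SEOR2, 2 of the 10, against 9.42% of all genes. Against WT roots, atm-2 rab8d-2 roots had 1 higher and 5 lower, where 35.1% of all genes were higher and 33.5% lower, and 2 of the 10 were past 2-fold, against 12.9% of all genes. In sog1-1 rab8d-2 roots 1 was higher and 5 were lower than in WT roots, where 28.8% and 29.2% of all genes were. In the libraries labelled nac044-1 rab8d-2 the counts over WT roots were also 1 and 5, where 29.3% and 28.8% of all genes were called. Neither of these groups had a member past 2-fold, against 8.24% and 7.68% of all genes. In nac085-1 rab8d-2 roots 2 were higher and 3 lower than in WT roots, where 32.5% and 32.4% of all genes were, and 1 (OPS) was past 2-fold, against 11.8% of all genes. OPS was higher than in WT roots in each of the 5 mutant genotypes, and SEOR1, SEOR2 and CVP2 were lower in each.

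**Figure D3:**
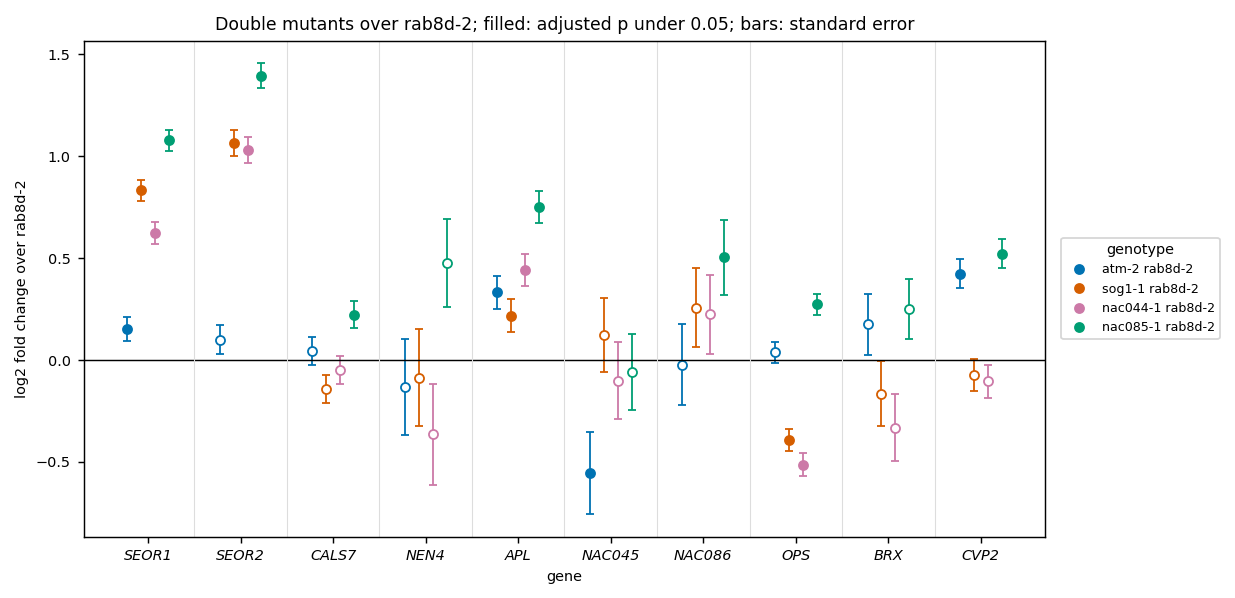
Log2 fold change of the 10 genes (horizontal axis) in each double mutant over rab8d-2 roots (vertical axis), with the standard error (bars), filled where the adjusted p was under 0.05. In nac085-1 rab8d-2 roots 9 of the 10 points are above 0 and 7 of them are filled, while OPS lies below 0 in sog1-1 rab8d-2 roots and in the libraries labelled nac044-1 rab8d-2.

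Against rab8d-2 roots, atm-2 rab8d-2 roots had 3 higher (APL, SEOR1 and CVP2) and 1 lower (NAC045), where 31.7% of all genes were higher and 29.9% lower. Without rab8d-2 replicate 2, or without atm-2 rab8d-2 replicate 3, only 2 of these 4 were called. In sog1-1 rab8d-2 roots 3 were higher (APL, SEOR1 and SEOR2) and 1 lower (OPS), where 28.7% of all genes were higher and 26.0% lower. The libraries labelled nac044-1 rab8d-2 had the same 3 higher and the same 1 lower, where 24.3% of all genes were higher and 18.6% lower. There the higher genes were 56.6% of all genes called, and 44.5% with upper quartile scaling, under which 4 of the 10 were still called. In nac085-1 rab8d-2 roots 7 were higher and 0 lower, where 31.8% of all genes were higher and 31.7% lower. The median log2 fold change of the 10 was 0.49 in nac085-1 rab8d-2 roots, against -0.005 over all genes. It was 0.07 in atm-2 rab8d-2 roots, 0.02 in sog1-1 rab8d-2 roots and -0.075 in the libraries labelled nac044-1 rab8d-2. Past 2-fold were 0 of the 10 in atm-2 rab8d-2 roots, against 9.94% of all genes, 1 (SEOR2) in sog1-1 rab8d-2 roots, against 4.90%, 1 (SEOR2) in the libraries labelled nac044-1 rab8d-2, against 2.40%, and 2 (SEOR1 and SEOR2) in nac085-1 rab8d-2 roots, against 9.57%. These comparisons share the rab8d-2 libraries, and those over WT roots share the WT libraries.

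The double mutants also differed among themselves. There were 8 of the 10 genes higher in nac085-1 rab8d-2 roots than in atm-2 rab8d-2 roots, where 48.3% of all genes were called in either direction. Likewise 8 were higher than in sog1-1 rab8d-2 roots, where 56.5% of all genes were called, and 8 higher than in the libraries labelled nac044-1 rab8d-2, where 58.5% were. None of the 10 was lower in nac085-1 rab8d-2 roots in any of these 3. Between sog1-1 rab8d-2 and atm-2 rab8d-2 roots 6 differed, where 57.8% of all genes did, with SEOR1, SEOR2 and NAC045 higher and CALS7, OPS and CVP2 lower. Between the libraries labelled nac044-1 rab8d-2 and atm-2 rab8d-2 roots 6 differed, where 65.8% did, with SEOR1, SEOR2 and NAC045 higher and BRX, OPS and CVP2 lower. Between the libraries labelled nac044-1 rab8d-2 and sog1-1 rab8d-2 roots 2 differed, where 52.2% of all genes did: APL was higher by 0.22 ± 0.08 and SEOR1 lower (log2 fold change -0.21 ± 0.05).

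OPS and CVP2 split the double mutants along the same line, atm-2 rab8d-2 and nac085-1 rab8d-2 roots high and the other double mutants low. SEOR1 and SEOR2, in contrast, were low in atm-2 rab8d-2 roots. Over all 18 libraries OPS and CVP2 did not go together, with a Pearson correlation of -0.118 on log2 CPM. In rab8d-2 roots OPS was above WT roots and CVP2 below. WOX5, a gene of the quiescent centre of the root tip, stood at 26.28 to 28.76 TPM in atm-2 rab8d-2 roots and 27.85 to 29.36 TPM in nac085-1 rab8d-2 roots. It stood at 7.73 to 9.19 TPM in sog1-1 rab8d-2 roots and 4.87 to 6.55 TPM in the libraries labelled nac044-1 rab8d-2, against 8.01 to 8.99 TPM in rab8d-2 roots and 1.67 to 2.31 TPM in WT roots. Among the double mutants WOX5 was thus high where OPS and CVP2 were high, which did not hold over all 6 genotypes. OPS averaged 17.35 TPM in rab8d-2 roots and 17.63 TPM in atm-2 rab8d-2 roots, while WOX5 averaged 8.65 and 27.43 TPM there. CVP2 was highest in WT roots, at 9.16 TPM, where WOX5 was lowest, at 1.99 TPM. The meristem gene PLT1 averaged between 5.62 and 7.91 TPM in all 6 genotypes. It was lowest in sog1-1 rab8d-2 roots, and called lower there than in rab8d-2 roots (log2 fold change -0.42 ± 0.09, adjusted p = 7.57e-05). The same held against WT roots (-0.37 ± 0.09, adjusted p = 0.00043). CCA1 and LHY, clock genes that peak around dawn, summed to 15.5 to 16.31 TPM in atm-2 rab8d-2 roots and to 18.31 to 18.7 TPM in sog1-1 rab8d-2 roots. They summed to 1.06 to 1.42 TPM in the libraries labelled nac044-1 rab8d-2 and to 0.9 to 1.24 TPM in nac085-1 rab8d-2 roots, against 0.64 to 1.07 TPM in rab8d-2 roots and 0.87 to 1.08 TPM in WT roots. The part of CCA1 and LHY in the values of atm-2 rab8d-2 and sog1-1 rab8d-2 roots, and that of WOX5 in the values of atm-2 rab8d-2 and nac085-1 rab8d-2 roots, was not tested.

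**Figure D4:**
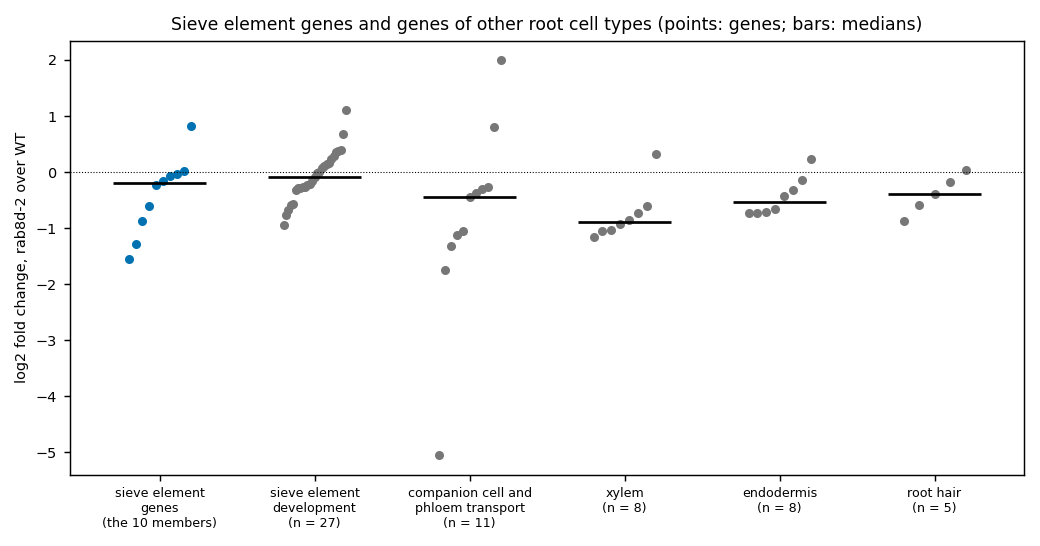
Log2 fold change in rab8d-2 roots over WT roots (vertical axis) of single genes (points) in the 10 sieve element genes and in lists of other root genes (horizontal axis), with the median of each (bars). The medians of the xylem, endodermis, root hair and companion cell lists, -0.895 to -0.384, are below that of the 10 sieve element genes, -0.20, and the lowest point is SWEET11 at -5.04.

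Other genes of sieve element development, 27 of them, split in both directions in rab8d-2 roots relative to WT roots, with 7 higher, 9 lower and a median log2 fold change of -0.09. These are shares near those of all genes, 31.7% higher and 32.9% lower. BAM3, the receptor kinase that holds back protophloem differentiation, fell to 28.1 ± 0.6 TPM in rab8d-2 roots, against 43.1 ± 1.4 TPM in WT roots (SD, n = 3 each). BAM3 was higher than in rab8d-2 roots in all 4 double mutants, at 46.0 TPM in atm-2 rab8d-2 roots, 34.4 TPM in sog1-1 rab8d-2 roots, 35.7 TPM in the libraries labelled nac044-1 rab8d-2 and 65.6 TPM in nac085-1 rab8d-2 roots (adjusted p of 1.99e-11 or less). PIP5K1, a kinase that makes the phosphoinositide on which CVP2 acts, was at 64.1 ± 1.5 TPM in rab8d-2 roots, against 38.8 ± 0.5 TPM in WT roots, the opposite direction to CVP2. SMXL4, a promoter of phloem formation, averaged 2.30 TPM in rab8d-2 roots and 4.22 TPM in WT roots. RTM2, a sieve element protein that limits the spread of a potyvirus, averaged 11.2 TPM in rab8d-2 roots and 16.0 TPM in WT roots. Against rab8d-2 roots, 15 of the 27 were higher and 4 lower in nac085-1 rab8d-2 roots, with a median of 0.27, where 31.8% of all genes were higher and 31.7% lower. The counts against rab8d-2 roots were 8 higher and 4 lower in atm-2 rab8d-2 roots, 6 and 9 in sog1-1 rab8d-2 roots, and 7 and 5 in the libraries labelled nac044-1 rab8d-2, beside shares of all genes of 31.7% and 29.9%, 28.7% and 26.0%, and 24.3% and 18.6%.

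Of the 12 listed genes of companion cells and phloem transport 11 passed the filter, and in rab8d-2 roots 9 were lower and 2 higher than in WT roots, with a median of -0.45, where 32.9% of all genes were lower and 31.7% higher. SWEET11, a sucrose exporter, averaged 1.83 TPM in rab8d-2 roots and 58.4 TPM in WT roots. SWEET12, its close relative, averaged 21.0 TPM in rab8d-2 roots and 67.9 TPM in WT roots. SUC2, the sucrose carrier that defines companion cells, averaged 12.6 TPM in rab8d-2 roots and 25.3 TPM in WT roots. UMAMIT18, an amino acid transporter, averaged 76.1 TPM in rab8d-2 roots and 159.9 TPM in WT roots. All 4 were called lower, and they were named for having the smallest p values of the list in this comparison. Other markers of companion cells were AHA3, PP2-A1 and SULTR2;1. AHA3 averaged 46.6 TPM and PP2-A1 33.8 TPM in rab8d-2 roots, against 55.6 and 42.4 TPM in WT roots. SULTR2;1 went the other way, with 3.58 TPM in rab8d-2 roots and 1.97 TPM in WT roots. Against rab8d-2 roots, 9 of the 11 were higher in sog1-1 rab8d-2 roots, 9 in the libraries labelled nac044-1 rab8d-2 and 9 in nac085-1 rab8d-2 roots, and 4 were higher in atm-2 rab8d-2 roots, beside 28.7%, 24.3%, 31.8% and 31.7% of all genes. The numbers lower were 1 in sog1-1 rab8d-2 roots, 0 in the libraries labelled nac044-1 rab8d-2, 1 in nac085-1 rab8d-2 roots and 1 in atm-2 rab8d-2 roots. SWEET11 and SWEET12 were at 2.06 and 22.8 TPM in atm-2 rab8d-2 roots, neither called against rab8d-2 roots (adjusted p = 0.483 and 0.0755), and at 21.45 and 49.2 TPM in sog1-1 rab8d-2 roots. They were at 7.86 and 44.2 TPM in the libraries labelled nac044-1 rab8d-2 and at 10.45 and 23.8 TPM in nac085-1 rab8d-2 roots, all called higher than in rab8d-2 roots, SWEET12 in nac085-1 rab8d-2 roots by only 0.19 ± 0.06 (log2, adjusted p = 0.00966). Summed over the list, levels were 329.5 to 339.6 TPM in atm-2 rab8d-2 roots, 318.9 to 326.9 TPM in sog1-1 rab8d-2 roots, 301.1 to 308.1 TPM in the libraries labelled nac044-1 rab8d-2, 339.7 to 346.2 TPM in nac085-1 rab8d-2 roots, 212.7 to 221.7 TPM in rab8d-2 roots and 439.8 to 446.4 TPM in WT roots. UMAMIT18 took a large part of these sums, with 199.1 TPM in atm-2 rab8d-2 roots, 125.5 TPM in sog1-1 rab8d-2 roots, 102.1 TPM in the libraries labelled nac044-1 rab8d-2, 160.5 TPM in nac085-1 rab8d-2 roots and 76.1 TPM in rab8d-2 roots.

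Markers of other root cell types moved in rab8d-2 roots as well, where 32.9% of all genes were lower than in WT roots and 31.7% higher. Xylem genes were lower in 7 of 8 and higher in 0 of 8, with a median of -0.895. The secondary wall cellulose synthases CESA4 and CESA7 averaged 14.8 and 14.35 TPM in rab8d-2 roots, against 32.5 and 28.2 TPM in WT roots. The xylem peptidases XCP1 and XCP2 averaged 89.2 and 111.1 TPM in rab8d-2 roots, against 141.8 and 194.3 TPM in WT roots. Endodermis genes were lower in 7 of 8 and higher in 1, with a median of -0.54. Among the lower ones were the Casparian strip genes ESB1, CASP2 and CASP5 at log2 fold changes of -0.71, -0.65 and -0.725. The 1 higher gene was SCR, which averaged 21.94 TPM in rab8d-2 roots and 18 TPM in WT roots. Root hair genes were lower in 4 of 5 and higher in 0, with a median of -0.38, PRP3 at -0.87, EXP7 at -0.595, COW1 at -0.38 and RSL4 at -0.175. The summed level of the xylem list was 273 to 274.4 TPM in rab8d-2 roots, against 464.2 to 485.8 TPM in WT roots, and that of the endodermis list was 487.6 to 497.8 TPM in rab8d-2 roots, against 676 to 710.7 TPM in WT roots. The summed root hair list was at 218.7 to 239.8 TPM in rab8d-2 roots, against 328.7 to 364.3 TPM in WT roots. What share these cell types have in the fall of SEOR1, SEOR2, APL and CVP2 was not tested.

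The same lists were counted in the double mutants against rab8d-2 roots. In nac085-1 rab8d-2 roots 8 of 8 xylem genes, 7 of 8 endodermis genes and 5 of 5 root hair genes were higher, with medians of 0.97, 0.44 and 0.40, and none was lower, where 31.8% of all genes were higher and 31.7% lower. In sog1-1 rab8d-2 roots 8, 7 and 4 were higher, with medians of 0.79, 0.625 and 0.39, and 1 root hair gene was lower, where 28.7% of all genes were higher and 26.0% lower. In the libraries labelled nac044-1 rab8d-2, 6 xylem genes, 2 endodermis genes and 0 root hair genes were higher, with medians of 0.69, 0.09 and 0.07, and 2 root hair genes were lower, where 24.3% of all genes were higher and 18.6% lower. In atm-2 rab8d-2 roots 6, 5 and 4 were higher, with medians of 0.41, 0.42 and 0.25, and none was lower, where 31.7% of all genes were higher and 29.9% lower. SEOR1 was at 0.15 and SEOR2 at 0.10 in that comparison. The summed xylem list was 327.9 to 331.3 TPM in atm-2 rab8d-2 roots, 443.2 to 468.3 TPM in sog1-1 rab8d-2 roots, 431.7 to 441.3 TPM in the libraries labelled nac044-1 rab8d-2 and 541.3 to 545.5 TPM in nac085-1 rab8d-2 roots.

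The other pairs of the 10 genes were less alike than SEOR1 and SEOR2. As a description over 18 libraries of 6 genotypes, the Pearson correlation on log2 CPM was 0.788 for CALS7 with CVP2, 0.739 for APL with SEOR2, 0.728 for APL with SEOR1 and 0.664 for BRX with OPS. It was -0.444 for SEOR1 with OPS, -0.453 for SEOR2 with OPS, -0.118 for OPS with CVP2 and 0.124 for NAC045 with NAC086. Outside the 10, the genes whose profile was most like the mean of their standardised log2 CPM were AT2G38390 (r = 0.969), AT4G19720 (0.918), AT5G67550 (0.917), XBAT31 (0.914) and AT3G57380 (0.913). AT2G38390 averaged 68.4 TPM in nac085-1 rab8d-2 roots, between 31.5 and 32.3 TPM in the other mutant genotypes and 49.2 TPM in WT roots. The genes most like SEOR1 were CTL2 (r = 0.980), GAUT12 (0.974) and FRU (0.974), and CTL2 averaged 38.1 TPM in rab8d-2 roots and 89.3 TPM in WT roots. Those most like APL were AT4G00880 (r = 0.936), AMSH1 (0.930) and CPUORF7 (AT2G31280, 0.923), and AT4G00880 averaged 62.8 TPM in rab8d-2 roots and 102.9 TPM in WT roots.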

How the data were processed

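Poly(A) RNA was sequenced from 18 root libraries, 3 for each of 6 genotypes, grouped by their titles. Per-gene estimated counts come from the authors, who used RSEM 1.3.1, per the submitters' processing notes. The deposited TPM values are scaled for transcript length and to a fixed sum per library, and are printed as levels. The deposited FPKM values are scaled for length and depth and were not used. The aligner, build, annotation and strand setting are not given in the sources used here. Of a library's estimated counts 1.56% to 1.75% were not whole numbers, and they were rounded. Totals were 20103634 to 20471203 counts per library. Replicates of a genotype differed by more than counting error, at 1.339 to 2.22 times its variance. The spread between replicates beyond counting error was small, at 2.38% in the fit (biological coefficient of variation), so that small changes could be called.

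Differences were tested across all genes with edgeR 4.0.16 in R 4.3.3, with TMM scaling (factors 0.9702 to 1.0241), filterByExpr (19981 genes kept) and the quasi-likelihood test with 1 mean per genotype over 18 libraries. The Benjamini-Hochberg adjustment ran over all genes within each of 9 comparisons and of 6 between double mutants, and a call needed an adjusted p under 0.05. On simulated data for rab8d-2 against WT with 19981 genes, 50 of 50 genes raised 2-fold and 49 of 50 lowered to 0.5 were recovered. For smaller changes, 47 of 50 genes raised 1.5-fold and 44 of 50 lowered to 0.667 were recovered. There were 9 false calls among the other genes. Only 50 genes were changed at each fold, picked above a floor on their WT counts, while 12893 genes were called in the real comparison. The simulation therefore does not cover scarce genes or a comparison with so many changes. Alternatives for the 9 comparisons used other scalings, filters, samples and rules, DESeq2 1.42.0, and limma 3.58.1 on log2(TPM + 1). The genes and lists were chosen with earlier results of these data known. Named genes were the 10 genes, the 5 mutated genes, up to 4 genes per list, taken by p value in rab8d-2 against WT, and the genes with the highest correlations. A gene that this rule names is not reported here. WOX5 and PLT1 are markers of the root tip, and SUC2, AHA3, PP2-A1 and SULTR2;1 are markers of companion cells. SCR was named as the endodermis gene that was higher in rab8d-2 roots than in WT roots. AT3G03190 and the genes beside NAC044 were named for their position.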

Additional observations from a re-analysis of the deposited data

How the results depend on the processing

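With the added requirement of a 2-fold change, the number of the 10 genes called over WT was 2 in rab8d-2 roots, 2 in atm-2 rab8d-2 roots, 0 in sog1-1 rab8d-2 roots, 0 in the libraries labelled nac044-1 rab8d-2 and 1 in nac085-1 rab8d-2 roots. Over rab8d-2 it was 0 in atm-2 rab8d-2 roots, 1 in sog1-1 rab8d-2 roots, 1 in the libraries labelled nac044-1 rab8d-2 and 2 in nac085-1 rab8d-2 roots. This follows from the rule, which asks for a larger change. The 72 other counts from whole-group alternatives were within 1.5 times the reported ones. With the replicate number as a block the counts were 6 for rab8d-2 over WT, 4, 4, 4 and 7 for the double mutants over rab8d-2 and 6, 6, 6 and 5 over WT, as without it. The labels do not say whether the numbers pair the libraries. The deviations of same-numbered libraries correlated at -0.284 to 0.143 over 45 pairs, with 3 pairs over 0.1. Those of libraries with different numbers correlated at -0.25 to 0.236 over 90 pairs, with 11 over 0.1. With 1 library left out, the count of called genes was 5 to 7 for rab8d-2 over WT, 2 to 4, 3 to 4, 4 and 6 to 8 for the double mutants over rab8d-2 (atm-2, sog1-1, nac044-1, nac085-1), and 6, 6, 5 to 6 and 4 to 5 over WT.

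Reversals were found only for fold changes that were not called. NAC086 was at 0.014 with upper quartile scaling and 0.006 with limma on log2(TPM + 1) for rab8d-2 over WT, and at 0.009 and 0.000 for atm-2 rab8d-2 over WT. The cause was not tested. With 1 library left out, log2 fold changes for rab8d-2 over WT ran from -0.241 to 0.169 for NAC086, from -0.694 to 0.004 for NEN4 and from -0.042 to 0.075 for BRX. For atm-2 rab8d-2 over rab8d-2 they ran from -0.222 to 0.187 for NAC086, from -0.366 to 0.332 for NEN4 and from -0.014 to 0.096 for CALS7. For sog1-1 rab8d-2 over rab8d-2 they ran from -0.011 to 0.219 for NAC045 and from -0.321 to 0.377 for NEN4. For the libraries labelled nac044-1 rab8d-2 over rab8d-2 they ran from -0.213 to 0.002 for NAC045, from -0.599 to 0.099 for NEN4 and from -0.109 to 0.002 for CALS7. NAC045 ran from -0.339 to 0.133 for nac085-1 rab8d-2 over rab8d-2, from -0.414 to 0.053 for nac085-1 rab8d-2 over WT and from -0.089 to 0.145 for sog1-1 rab8d-2 over WT, and NAC086 from -0.213 to 0.132 for atm-2 rab8d-2 over WT. NEN4 rested on 20 to 48 counts per library, 20, 48 and 25 in rab8d-2 roots.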
